A study of Mus musculus with 2 samples.

Results

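The cells described here are macrophages of 2 mouse single-cell libraries that carried the highest levels of a 4-gene hypoxia program. They were chosen by a rule on their own counts. Barcodes with at least 1000 unique molecular identifiers (UMIs, counts of captured transcripts) were kept. A barcode was counted as myeloid when Csf1r, C1qa, C1qb, C1qc and Cd68 together reached 15 UMIs per 10000 (CP10K) and Cd3d, Cd3e and Cd3g together had at most 1 UMI. Of these myeloid cells, the 8% with the highest summed CP10K of Egln3, Ankrd37, Bnip3 and Ero1a, pooled over both libraries, are called members below. They number 684 of 8544 myeloid cells and of 15373 barcodes in all. The library labelled KO gave 209 members among 3287 myeloid cells, and the WT library gave 475 among 5257.

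Cells sense oxygen through prolyl hydroxylases of the EGLN family, which use oxygen to mark the alpha subunits of the hypoxia-inducible factors (HIF) for destruction by the VHL complex. When oxygen is low the subunits persist, pair with ARNT and bind the core sequences ACGTG and GCGTG near genes for glucose uptake, glycolysis, vessel growth and mitochondrial turnover. Macrophages in poorly perfused tissue, tumours among them, are known to run this program and to switch to glycolysis. Egln3 encodes the hydroxylase PHD3 and is itself induced by HIF, a negative feedback. Ankrd37 encodes an ankyrin-repeat protein induced by HIF, Bnip3 a receptor on the outer mitochondrial membrane that directs mitophagy, and Ero1a the oxidase that recharges protein disulfide isomerase in the endoplasmic reticulum. The remaining label markers are Hmox1, the heme-degrading enzyme heme oxygenase 1, and Mmp12, macrophage elastase.

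The series studies RUNX3, a transcription factor of cytotoxic lymphocytes and other leukocytes, in colorectal cancer with tumour models. It has 1 library of the genotype RUNX3 ko and 1 of the genotype RUNX3 wt, both with colon as the tissue label. The sources used here do not give sex, age, strain, the tumour model, the number of animals pooled, any sorting of cells or the part of the gene that was deleted. With 1 library per group nothing below has a replicate check, no test is given, and every interval is a 95% interval of counting error only. Because the rule used the counts of the cells it chose, members against other myeloid cells is a description throughout.

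The library labelled KO held 6573 barcodes with 62465176 UMIs and the WT library 8800 barcodes with 85367638 UMIs, and 17 barcodes occurred in both, none of them a member's. Runx3 transcripts were present under the KO label, at 184 UMIs per 1000000 (CPM, over the summed counts of a cell group) in members and 170 CPM in other myeloid cells, against 187 and 224 CPM in WT, so that library is called the library labelled KO. Whether these counts fall on a deleted part of the gene was not tested. The library labelled KO also mixed cells of both sex types: among its members 71 had UMIs of Y-linked genes and no Xist (male-type), 91 had Xist and no Y-linked gene (female-type), 12 had both and 35 had neither. The WT members were 367 male-type cells and 108 with no call. The library labelled KO thus held cells of more than 1 animal, and genotype, sex and animal cannot be told apart when whole libraries are compared.

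The gate on Csf1r, C1qa, C1qb, C1qc and Cd68 already chose macrophage-type cells, so other macrophage markers are given as a description. Of 8 such markers, 4 were higher in members than in other myeloid cells in both libraries and 3 were lower in both. The median log2 ratio was -0.16 in the library labelled KO and 0.18 in WT. Mrc1 had 570 CPM in members and 755 CPM in other myeloid cells of the library labelled KO, and 493 and 748 CPM in WT. Adgre1, the macrophage surface receptor F4/80, had 154 CPM in members and 258 CPM in other myeloid cells of the library labelled KO, and 163 and 204 CPM in WT. Mertk, a receptor for the uptake of dying cells, had 103 and 140 CPM in the library labelled KO and 111 and 123 CPM in WT, and Fcgr1, the high-affinity IgG receptor, had 193 and 182 CPM in the library labelled KO and 233 and 204 CPM in WT. T cell markers summed to 24.7 CPM in members and 17.1 CPM in other myeloid cells of the library labelled KO, and to 19.4 and 23.4 CPM in WT. Cd3d, Cd3e and Cd3g are among these markers and were capped by the gate, so a low sum was partly set in advance. NK cell markers summed to 9.3 CPM in KO members and 13.7 CPM in WT members. Fibroblast and mesenchymal markers summed to 17.2 CPM in members and 228 CPM in other myeloid cells of the library labelled KO, and to 63.5 and 183 CPM in WT. Neutrophil markers were higher in members of the library labelled KO. They reached 671 CPM in KO members and 130 CPM in other myeloid cells of that library, against 24.7 and 29.4 CPM in WT. They are taken up with the comparison of the libraries. Epithelial markers do not place these cells in colon epithelium: 6 of 9 were at 0 in KO members and 4 of 9 in WT members, and Cdh1, which macrophages can also express, made up 45.1 of their 48.4 CPM in KO members and 30.9 of 35.7 CPM in WT members.

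Members were somewhat shallower than other myeloid cells. Their median depth was 9260 UMIs, against 10949.5 in other myeloid cells of the library labelled KO, and 8253 against 9489 in WT. At a common depth of 1000 UMIs they had a median of 614 genes, against 656 in other myeloid cells of the library labelled KO, and 627 against 658 in WT. Mitochondrial transcripts took a median of 0.356% of UMIs in KO members and 0.442% in other KO myeloid cells, and 0.424% and 0.534% in WT. All 3 measures were lower in members in both libraries, and their part in the results below was not tested.

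The promoters of the 4 rule genes are shown because the HIF core sequence is the feature a reader would look for first in them, with Slc2a1, the glucose transporter GLUT1, as the leading transport gene outside the rule. Each line gives the 250 bases upstream of the gene start in RefSeq (GRCm38.p6), 5′ to 3′ on the gene's strand, and capitals mark ACGTG on either strand (ACGTG or CACGT as read here). Egln3 lies on chr12:54203875-54204124 (minus strand), with a match starting 229 bases before the gene start. Ankrd37 lies on chr8:45999851-46000100 (minus strand), with matches at 241 and 6 bases; this start is RefSeq's, and the GENCODE gene given below begins farther upstream and spans the window. The Bnip3 window is chr7:138909507-138909756 (minus strand), where both strands match in 1 palindromic hexamer that starts 108 bases before the gene start. Ero1a lies on chr14:45318573-45318822 (minus strand, match at 63 bases), and Slc2a1 on chr4:119108495-119108744 (plus strand, match at 36 bases). The GENCODE genes of Bnip3, Ero1a and Slc2a1 begin inside these windows, and that of Ero1a covers the marked match.
Egln3: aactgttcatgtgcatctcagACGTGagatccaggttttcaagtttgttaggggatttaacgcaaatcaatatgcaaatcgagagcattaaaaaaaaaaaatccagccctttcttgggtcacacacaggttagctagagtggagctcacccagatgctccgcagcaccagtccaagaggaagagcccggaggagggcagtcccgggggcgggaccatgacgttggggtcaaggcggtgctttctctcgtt
Ankrd37: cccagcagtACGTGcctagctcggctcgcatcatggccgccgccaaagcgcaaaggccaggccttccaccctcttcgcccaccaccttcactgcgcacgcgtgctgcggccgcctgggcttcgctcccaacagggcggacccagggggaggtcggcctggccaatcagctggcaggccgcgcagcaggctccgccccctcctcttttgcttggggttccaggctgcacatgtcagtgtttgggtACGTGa
Bnip3: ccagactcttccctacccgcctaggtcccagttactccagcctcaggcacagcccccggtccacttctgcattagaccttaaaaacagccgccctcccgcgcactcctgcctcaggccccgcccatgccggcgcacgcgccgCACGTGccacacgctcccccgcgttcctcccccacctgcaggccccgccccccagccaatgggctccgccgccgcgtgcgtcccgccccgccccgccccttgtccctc
Ero1a: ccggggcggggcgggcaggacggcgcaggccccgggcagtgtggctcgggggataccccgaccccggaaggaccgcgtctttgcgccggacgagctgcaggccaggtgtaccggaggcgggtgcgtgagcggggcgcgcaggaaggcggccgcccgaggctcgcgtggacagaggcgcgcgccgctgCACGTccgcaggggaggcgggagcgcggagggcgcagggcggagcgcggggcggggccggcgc
Slc2a1: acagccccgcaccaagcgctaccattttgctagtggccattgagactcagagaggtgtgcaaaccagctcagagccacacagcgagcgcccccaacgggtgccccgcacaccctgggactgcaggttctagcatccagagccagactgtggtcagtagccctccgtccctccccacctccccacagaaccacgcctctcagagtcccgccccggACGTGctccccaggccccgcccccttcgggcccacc

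ACGTG was found in the windows of all 4 rule genes. Across the table it was in 16.6% of 27025 windows, and among measured genes with a window in 23.2% of 7763. It was in 9 of 22 windows of the glycolysis and lactate export list (40.9%), in 21 of 74 windows of the genes at least 2-fold higher in members (28.4%) and in 4 of 45 windows of those at least 2-fold lower (8.89%). The second core form searched, GCGTG on either strand, was in 44.6% of the windows of the higher genes and 47% of those of all measured genes. Among the 20 leading genes named below, 16 had a window and 4 of these held ACGTG (Selenbp1, Mgarp, Slc2a1 and Cxcl3). These are matches of letters in a short window and describe no binding.

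**Figure D1:**
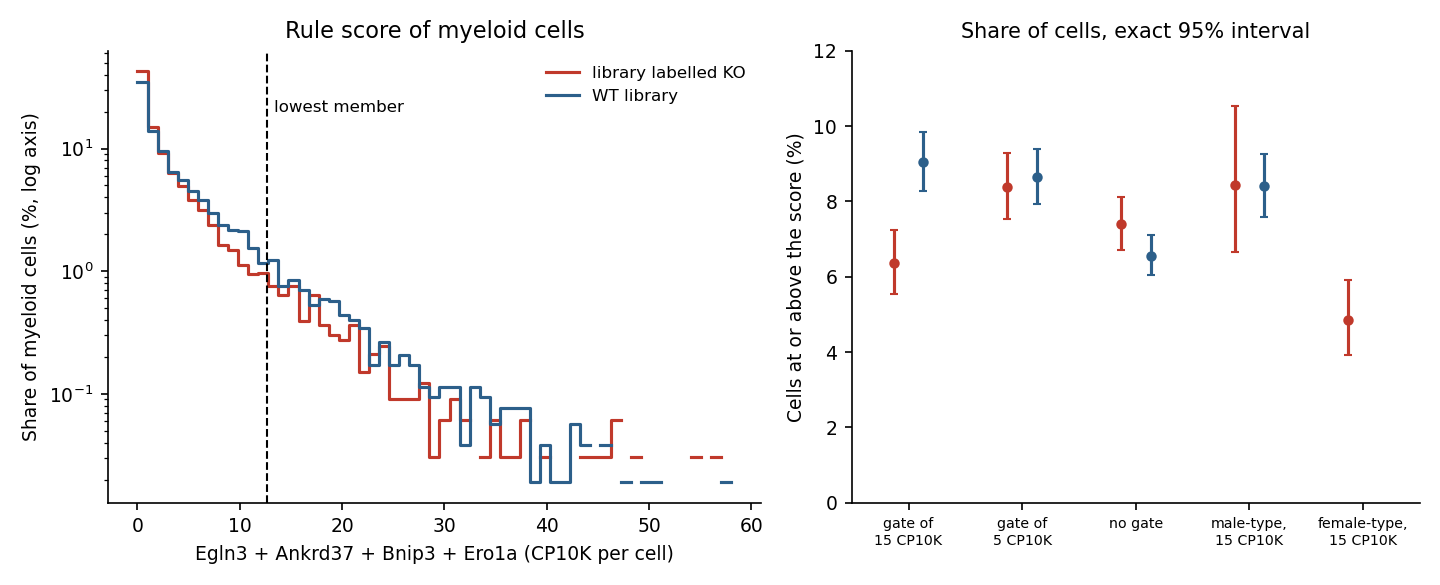
Left, the share of myeloid cells (%, log axis) in each bin of the rule score, the summed CP10K of Egln3, Ankrd37, Bnip3 and Ero1a, for the library labelled KO and the WT library, with a dashed line at the lowest member; higher scores lie beyond the axis. Right, the share of cells at or above that score with exact 95% intervals under 3 gates and by sex type: the intervals of the libraries stand apart under the gate of 15 CP10K (6.36% and 9.04%) and overlap under the gate of 5 CP10K (8.38% and 8.65%).

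The score had no gap at the threshold, so membership is a range of the score, and whether members are a separate type was not tested. The lowest member had 12.6227 CP10K and the highest cell left out 12.6103, and the 20th cells on either side of the line had 12.8 and 12.4. The median member had 17.8 CP10K, and the highest 109. The median of the other myeloid cells was 1.46 CP10K, with 31.2% of them at 0. Close to the line, 187 members had up to 15 CP10K, and 307 cells left out had 10 or more.

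The values that chose the members are given as a description. Egln3 (ENSMUSG00000035105, mm10 chromosome 12, 54178981 to 54203860) had 308 CPM in members and 27.4 CPM in other myeloid cells of the library labelled KO, and 338 and 32.2 CPM in WT. Ankrd37 (chromosome 8, 45996902 to 46005707) had 135 and 24.6 CPM in the library labelled KO, and 221 and 31.1 CPM in WT. Bnip3 (chromosome 7, 138890836 to 138909519) had 545 and 88.6 CPM in the library labelled KO, and 631 and 117 CPM in WT, again members first. Ero1a (chromosome 14, 45283087 to 45318771) had 932 and 103 CPM in the library labelled KO, and 749 and 112 CPM in WT. Ero1a gave 48.5% of the score's UMIs in KO members and 38.7% in WT members, so it weighed most in the choice.

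Choosing high counts selects upward counting noise, and the size of that was measured. When the UMIs were split at random into 2 equal parts, with members chosen on 1 part and read in the other, Egln3 had 282 CPM in members and 30.4 CPM in other cells of the library labelled KO, and 294 and 35.4 CPM in WT, and 80.6% of those chosen were members. When members were chosen without the gene in question, Egln3 still had 248 CPM in members and 30.0 CPM in other cells of the library labelled KO and 249 and 40.1 CPM in WT. Ero1a, left out in the same way, had 668 and 120 CPM in the library labelled KO and 556 and 128 CPM in WT. Each of the 4 genes was at least 3-fold higher in cells chosen by the other 3, in both libraries. Between 75.4% and 91.1% of the cells so chosen were members. The 4 genes were put together with earlier results of these data known, so these readings describe the same cells and give no separate support.

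The share of members among myeloid cells was 6.36% (5.55 to 7.25%, exact binomial) in the library labelled KO and 9.04% (8.27 to 9.84%) in WT, a ratio of 0.704 (0.595 to 0.830). The size and the direction of this difference depended on the cells and the gate. With a stricter gate of 30 CP10K and the 8% chosen again, the shares were 5.71% and 9.39%, a ratio of 0.609. Among male-type cells, present in both libraries, the shares were 8.44% (71 of 841) and 8.40% (367 of 4370), a ratio of 1.01 (0.768 to 1.30), while the female-type myeloid cells, all in the library labelled KO, had 4.85% (91 of 1877). With a myeloid gate of 5 CP10K in place of 15, 8.38% of cells in the library labelled KO and 8.65% in WT reached the members' score, a ratio of 0.968 (0.840 to 1.11). With no myeloid gate the order turned, with 7.39% of 5357 barcodes in the library labelled KO and 6.56% of 8616 in WT, a ratio of 1.13 (0.989 to 1.28). Among male-type barcodes with no gate the shares were 9.58% (124 of 1294) and 6.16% (432 of 7014), a ratio of 1.56 (1.26 to 1.90). The gate's own genes differed between the libraries, and not all in 1 direction: C1qa had 2170 CPM in KO members and 3005 CPM in WT members, while Csf1r had 433 and 405 CPM. How much of the lower share in the library labelled KO comes from the gate, the sex mix or the genotype was not tested.

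Outside the rule, members had higher levels of glycolysis, glycogen and heat shock genes and lower levels of cell cycle genes than other myeloid cells of their own library. A gene was called when the ratio of summed CPM, members over other myeloid cells with 5 CPM added to both, was at least 2-fold in both libraries. Of 9903 genes measured, 91 were higher (0.919%) and 54 lower (0.545%), and the median gene had a log2 ratio of -0.17 in the library labelled KO and -0.14 in WT. Since the rule used these cells, the counts describe the members and test nothing.

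Nos2, the inducible nitric oxide synthase, had the highest ratio that held in both libraries. It had 168 CPM in members and 11.9 CPM in other myeloid cells of the library labelled KO (14.1-fold, 12.3 to 16.3), and 128 and 16.2 CPM in WT (7.92-fold, 7.09 to 8.85). The gene (ENSMUSG00000020826) lies on chromosome 11, 78920787 to 78960254. Its transcripts were concentrated: 10 cells held 57.5% of its UMIs in KO members and 28.9% in WT members. Next came the stress-inducible HSP70 genes Hspa1b and Hspa1a, then Tnfrsf9, the costimulatory receptor 4-1BB, with 346 and 58.8 CPM in the library labelled KO and 343 and 75.5 CPM in WT.

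The rest of the 20 leading genes mixed hypoxia targets with stress genes and secreted factors. Hmox1, Selenbp1, Cxcl3, Hilpda, Adm, Ak4, Hspb1, Mgarp, Mmp12, Pgf, Slc2a1, Gys1, Gadd45a, Hsph1, Prelid2 and Arg1 completed them. Hilpda, which restrains the breakdown of lipid droplets under hypoxia, had 587 CPM in members and 155 CPM in other cells of the library labelled KO, and 497 and 121 CPM in WT. Ak4, a mitochondrial adenylate kinase, had 28.4 and 4.45 CPM in the library labelled KO and 35.9 and 6.74 CPM in WT. Selenbp1, a methanethiol oxidase, had 77.2 and 15.3 CPM in the library labelled KO and 102 and 21.4 CPM in WT.

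**Figure D2:**
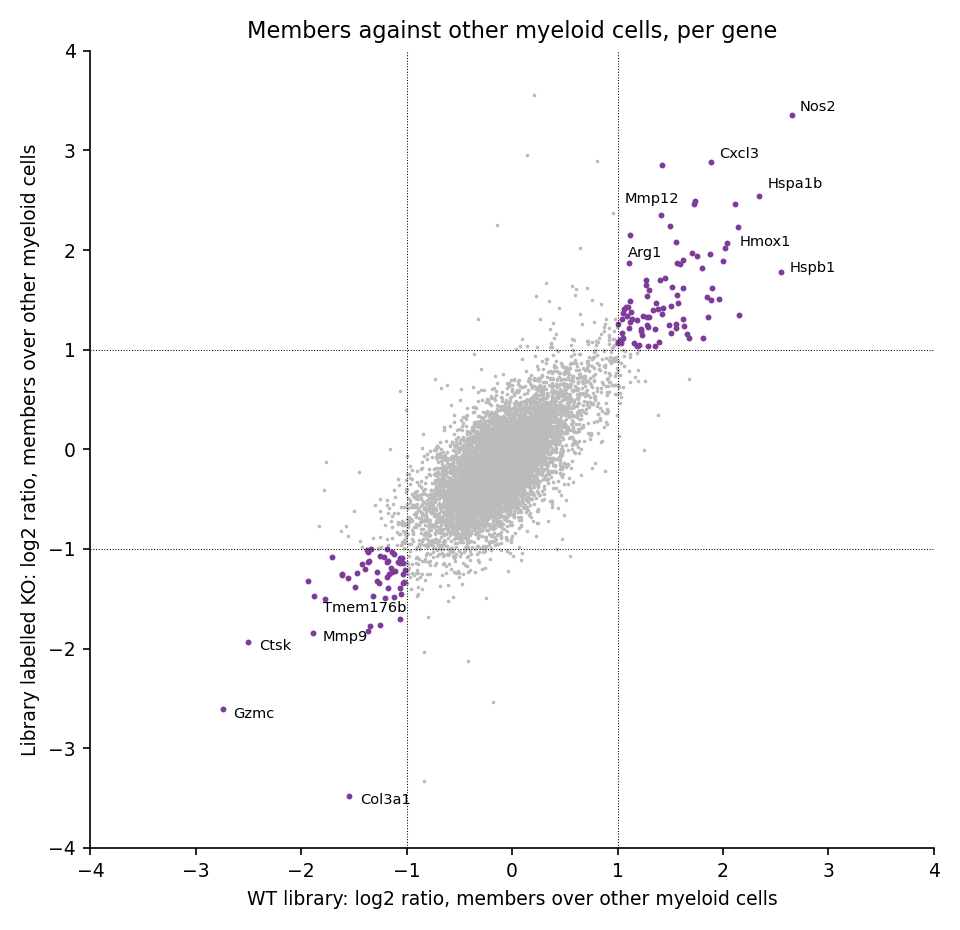
Each point is a measured gene, with the log2 ratio of members over other myeloid cells (CPM plus 5) in the WT library on the x axis and in the library labelled KO on the y axis. Purple points are at least 2-fold apart in both libraries, 91 higher and 54 lower, with Nos2 at the upper end (3.36 and 2.65) and Gzmc, Ctsk and Col3a1 at the lower end.

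Among oxygen sensing and HIF regulators, 5 of 16 measured genes were at least 2-fold higher in members and none was lower. They were Egln1, the main oxygen-sensing hydroxylase PHD2, Ndrg1, Ddit4, an inhibitor of mTORC1, the cytokine Mif, and Higd1a of the mitochondrial inner membrane. Egln1 had 115 CPM in members and 39.1 CPM in other cells of the library labelled KO, and 140 and 46.1 CPM in WT. Ndrg1 had 507 and 153 CPM in the library labelled KO, and 497 and 184 CPM in WT. Hif1a, the alpha subunit itself, is controlled mainly at the protein. Its transcript was higher in members but short of 2-fold, with 395 and 287 CPM in the library labelled KO and 309 and 274 CPM in WT. The median log2 ratio of this list was 0.50 in the library labelled KO and 0.56 in WT.

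Glycolysis was higher almost throughout the pathway. Of 21 measured genes of the glycolysis and lactate export list 19 had ratios above 1 in both libraries and 6 were at least 2-fold higher, with a median log2 ratio of 0.93 in the library labelled KO and 0.87 in WT. Slc2a1 had 375 CPM in members and 92.1 CPM in other cells of the library labelled KO (4.08-fold, 3.77 to 4.40), and 379 and 113 CPM in WT (3.36-fold, 3.18 to 3.55). The other 5 were the enzymes Hk1, Gpi1, Aldoa, Tpi1 and Pgk1. Pgk1, phosphoglycerate kinase, had 1186 and 469 CPM in the library labelled KO and 1253 and 514 CPM in WT. Ldha, lactate dehydrogenase A, just missed the threshold in WT, with log2 ratios of 1.02 in the library labelled KO and 0.94 in WT.

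Glycogen genes had the highest median of any list tested apart from the rule itself, 1.05 in the library labelled KO and 0.99 in WT on the log2 scale. Of 8 measured, 4 were at least 2-fold higher: Gys1, glycogen synthase, Gbe1, the branching enzyme, Pgm1, phosphoglucomutase, and Ppp1r3b, a subunit that targets a phosphatase to glycogen. Gys1 had 99.5 CPM in members and 23.1 CPM in other cells of the library labelled KO, and 119 and 35.4 CPM in WT.

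Genes for vessel growth and collagen hydroxylation were higher as well, 5 of 11 measured. Vegfa had 409 CPM in members and 155 CPM in other cells of the library labelled KO, and 290 and 137 CPM in WT. Pgf, placental growth factor, had 94.9 and 13.1 CPM in the library labelled KO, and 57.5 and 13.9 CPM in WT. Pgf was detected in 18.2% of KO members and 14.1% of WT members, and 10 cells held 61.3% and 45% of its UMIs there. Adm, the vasodilator peptide adrenomedullin, was near absent outside the members, with 15.4 and 0.216 CPM in the library labelled KO and 17.0 and 0.988 CPM in WT. P4ha1 and P4ha2, the catalytic subunits of collagen prolyl hydroxylase, were the other 2 genes past 2-fold, and P4ha1 had 302 and 117 CPM in the library labelled KO and 305 and 126 CPM in WT.

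Hmox1 was high in members while most of the NRF2 and iron list was not. Hmox1 (ENSMUSG00000005413, chromosome 8, 75093621 to 75100589) had 366 CPM in members and 83.5 CPM in other cells of the library labelled KO (4.38-fold, 4.04 to 4.74), and 419 and 98.2 CPM in WT (4.27-fold, 4.04 to 4.51). Fth1, the heavy chain of the iron store ferritin, was the only other of 23 measured genes past 2-fold, with 27684 and 12363 CPM in the library labelled KO and 30800 and 14936 CPM in WT. The light chain gene Ftl1 had 4936 and 3501 CPM in the library labelled KO and 7146 and 4135 CPM in WT, and the list median was -0.01 in the library labelled KO and 0.11 in WT.

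Summed levels of matrix-degrading enzymes went in both directions. Mmp12 (ENSMUSG00000049723, chromosome 9, 7344381 to 7369499) had 1809 CPM in members and 318 CPM in other cells of the library labelled KO (5.69-fold, 5.49 to 5.90), and 1509 and 450 CPM in WT (3.36-fold, 3.26 to 3.45). Mmp13, collagenase 3, had 175 and 30.3 CPM in the library labelled KO and 75.3 and 25.1 CPM in WT, and Adam8, a membrane protease of leukocytes, was past 2-fold too. Mmp13 was detected in 21.1% of KO members and 18.5% of WT members, and 10 cells held 65.8% and 42.4% of its UMIs there. Mmp9, gelatinase B, was among the lowest genes, with 5.58 and 32.9 CPM in the library labelled KO and 3.83 and 27.8 CPM in WT. Ctsk, the collagenase cathepsin K of osteoclasts, was low beside it, with 16.3 and 76.4 CPM in the library labelled KO and 5.27 and 53.2 CPM in WT. Ctsk was detected in 5.74% of members and 5.39% of other cells of the library labelled KO, and in 4% and 3.72% in WT. Among the other cells, 10 held 86.4% of Ctsk UMIs in the library labelled KO and 79.3% in WT. Mmp9 was detected in 5.26% of members and 2.73% of other cells of the library labelled KO. In WT its share was slightly smaller in members. How far few other cells set the low sum of Mmp9 was not tested. The 6 osteoclast markers, Ctsk among them, summed to 166.5 CPM in KO members and 252 CPM in other cells of that library, and to 225.8 and 293.2 CPM in WT, and their part in these values was not tested.

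Part of the heat shock list had higher summed levels in members. Of 12 measured, 5 were at least 2-fold higher in members: Hspa1a, Hspa1b, Hsph1, Hspb1 and the co-chaperone Bag3. Hspa1a had 750 CPM in members and 156 CPM in other cells of the library labelled KO, and 649 and 143 CPM in WT. The median member had 0 CP10K of Hspa1a in both libraries, and 10 cells held 46.8% of its UMIs in KO members and 25.03% in WT members. Hspa1a and Hspa1b are near-identical neighbours, so reads may be split between them and their separate levels are uncertain. The constitutive chaperone Hspa8 had 1224 and 1301 CPM in the library labelled KO and 1213 and 1246 CPM in WT. Neither the 18 measured genes of oxidative folding and ER chaperones nor the 9 of the integrated stress response had a member past 2-fold in both libraries. Over all genes 0.919% were higher and 0.545% lower, so none in lists of this size is near that share. The folding list had medians of -0.23 in the library labelled KO and -0.24 in WT, with 12 genes below a ratio of 1 in both and 4 above. The stress response list had medians of 0.01 and 0.23.

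Polarization genes did not follow a single axis. Arg1, arginase 1, usually set against Nos2, had 2977 CPM in members and 813 CPM in other cells of the library labelled KO, and 2339 and 785 CPM in WT, and it was the only one of 12 alternative activation genes past 2-fold. The chemokines Ccl17 and Ccl22 of the same list had log2 ratios of -0.13 and -0.77 in the library labelled KO and of -1.77 and -1.83 in WT. Of 19 inflammatory genes 4 were past 2-fold (Nos2, Cxcl3, Slpi and Inhba), while Tnf had 140 and 241 CPM in the library labelled KO and 83.9 and 120 CPM in WT. Of 16 lipid-associated macrophage genes 5 were past 2-fold, Spp1, Gpnmb, Fabp4, Lgals3 and the lipid droplet coat Plin2. Spp1, osteopontin, had 1777 and 715 CPM in the library labelled KO and 1397 and 449 CPM in WT, but Trem2, the lipid receptor after which such cells are often named, had 385 and 432 CPM in the library labelled KO and 440 and 401 CPM in WT.

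Proliferation genes were the clearest group on the low side. All 27 measured cell cycle genes had ratios below 1 in both libraries and 8 were at least 2-fold lower, with a list median of -0.98 in the library labelled KO and -1.04 in WT. The 8 were the mitotic gene Birc5 and the replication genes Mcm2, Mcm3, Mcm5, Mcm6, Mcm7, Rrm1 and Hells. Mcm6, a subunit of the replicative helicase, had 15.8 CPM in members and 62.9 CPM in other cells of the library labelled KO, and 22.3 and 52.1 CPM in WT. Single genes with low ratios also included Tmem176a and Tmem176b, paired membrane proteins of antigen-presenting cells, the Cdc42 activator Fgd2 and the adhesion receptor Vcam1. Tmem176b had 94.0 and 269 CPM in the library labelled KO and 64.5 and 250 CPM in WT.

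Genes of oxidative and sterol metabolism had small ratios, most of them below 1. Of all genes measured, 57.3% were below a ratio of 1 in both libraries and 20.3% above it in both. All 14 tricarboxylic acid cycle genes and all 16 genes of cholesterol synthesis and uptake were below a ratio of 1 in both libraries, as were 28 of 31 nuclear genes of oxidative phosphorylation, with none of the 3 lists holding a gene 2-fold lower in both. Of all genes measured, 0.545% were that low. The list medians in the library labelled KO were -0.39, -0.43 and -0.26 on the log2 scale, and those in WT were -0.27, -0.55 and -0.21. Against the median gene, at -0.17 in the library labelled KO and -0.14 in WT, the oxidative phosphorylation list stood hardly apart. MHC class II genes had list medians of -0.29 in the library labelled KO and -0.55 in WT. H2-Ab1, a class II beta chain, had 3920 CPM in members and 5039 CPM in other cells of the library labelled KO, and 4291 and 6882 CPM in WT.

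Among the lowest genes, Gzmc, a granzyme of killer lymphocytes, and Col3a1, a fibrillar collagen of fibroblasts, belong to other cell types. Gzmc had 4.19 CPM in members and 51.1 CPM in other cells of the library labelled KO, and 5.99 and 68.6 CPM in WT. Gzmc was detected in 4.31% of members and 3.35% of other cells of the library labelled KO, and in 4% and 5.44% in WT. Among the other cells, 10 held 80.0% of Gzmc UMIs in the library labelled KO and 67.7% in WT. The NK markers beside it had a sum of 9.3 CPM in members and 41.7 CPM in other KO cells, and of 13.7 and 75.9 CPM in WT. Col3a1 had 6.51 and 123 CPM in the library labelled KO and 32.8 and 105 CPM in WT, beside the mesenchymal sums given above. The part of these other cell types in the low ratios was not tested.

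**Figure D3:**
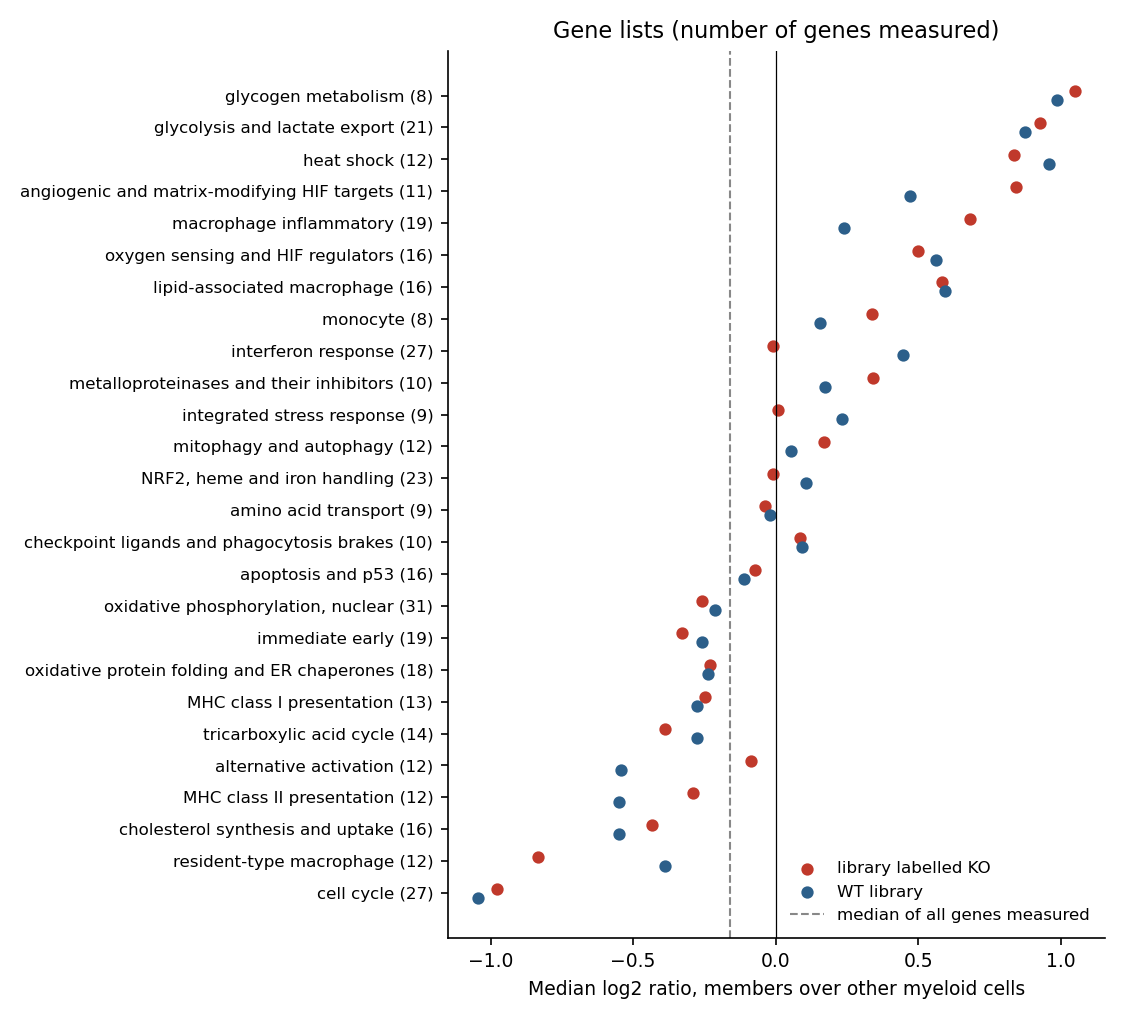
Median log2 ratio of members over other myeloid cells (x axis) for each gene list, with the number of genes measured, in the library labelled KO and the WT library; the dashed line is the median of all genes measured. Glycogen lies highest in both libraries among the lists outside the rule, at 1.05 and 0.99, and cell cycle lowest, at -0.98 and -1.04.

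Some of these differences were already present below the line that defines members. Cells were binned by the score, from a score of 0, through 3 bins of equal size over both libraries, to the members. Across these 5 bins the summed glycolysis list stood at 4300, 5324, 7522, 10536 and 13568 CPM in the library labelled KO, and at 5228, 6249, 8795, 11714 and 15616 CPM in WT. Arg1 was higher in each successive bin as well, at 294, 450, 942, 1871 and 2977 CPM in the library labelled KO and at 276, 379, 848, 1589 and 2339 CPM in WT. Tmem176b was lower at each step, at 366, 304, 222, 156 and 94.0 CPM in the library labelled KO and at 372, 296, 210, 136 and 64.5 CPM in WT.

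Hspa1a differed in shape between the libraries. It stood at 173, 141, 147, 175 and 750 CPM over the 5 bins of the library labelled KO, flat until the members, and at 101, 75.5, 151, 242 and 649 CPM in WT, higher from the middle bin on. Nos2 was steep from the middle bin on, at 2.84, 3.74, 10.6, 38.0 and 168 CPM in the library labelled KO and at 4.11, 4.08, 13.2, 42.5 and 128 CPM in WT. Runx3 was even across the bins of the library labelled KO, at 171, 164, 170, 177 and 184 CPM, and was lowest in the members of WT, at 226, 238, 226, 203 and 187 CPM. The bins differ in depth, with median UMIs of 7547 at score 0 and 13753.5 in the next bin of the library labelled KO, against 7330 and 11959 in WT, and the part of depth in these values was not tested.

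**Figure D4:**
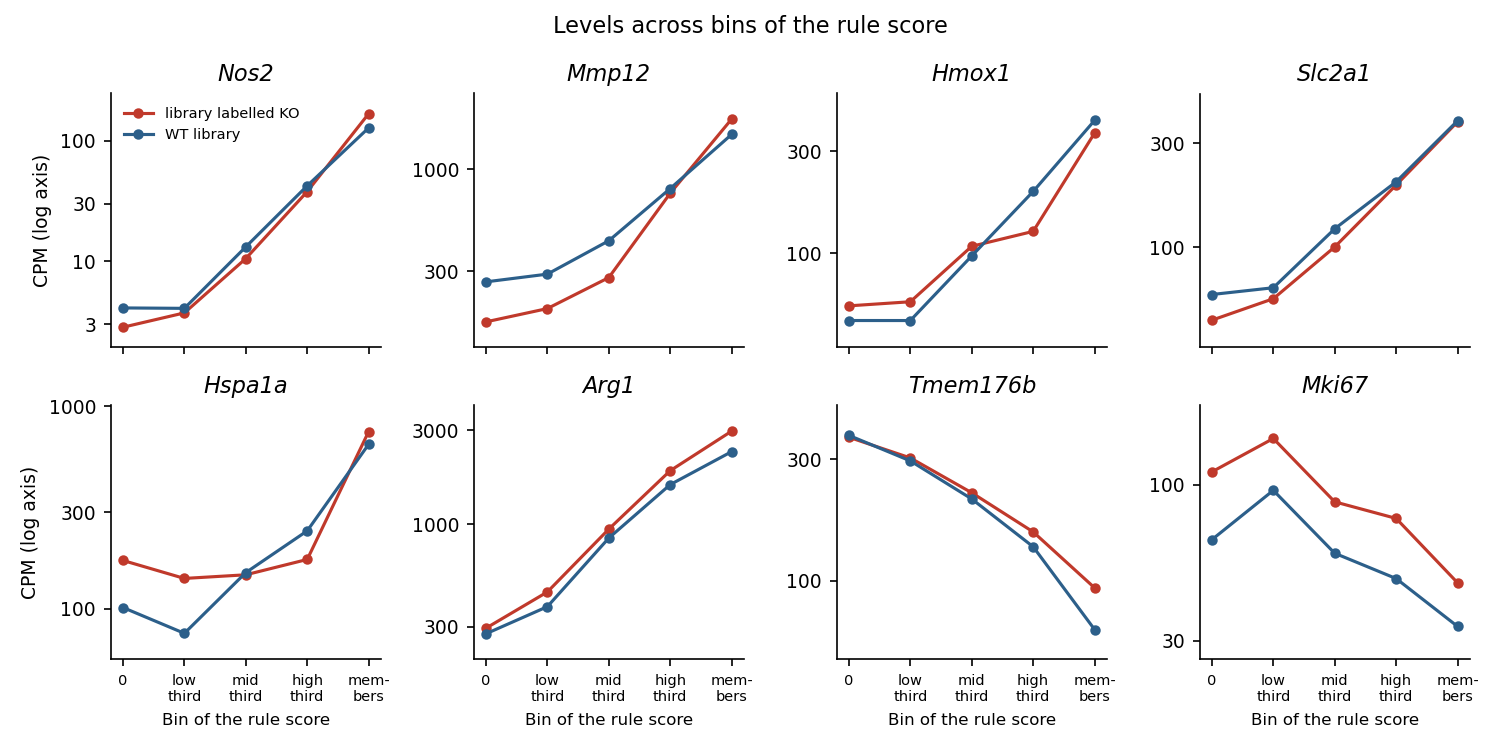
Summed CPM (log axis) of 8 genes in myeloid cells binned by the rule score, from 0 through 3 bins of equal size to the members, for the library labelled KO and the WT library. Nos2, Mmp12, Slc2a1 and Arg1 are highest in the members, Hspa1a is flat before the members in the library labelled KO (750 CPM in members) and climbs from the middle bin on in WT (649 CPM in members), and Tmem176b and Mki67 are lowest in the members.

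Members varied among themselves. For each list the 8% of myeloid cells with the highest summed level were taken, so that 8% of the members would fall in each by size alone. The glycolysis set held 48.0% of the members, the oxygen sensing set 39.5%, the NRF2 and iron set 36.1%, the glycogen set 34.2% and the heat shock set 25%. The NRF2 and iron sum was mostly ferritin RNA, Fth1 and Ftl1 at the levels given above. The whole list summed to 36394.5 CPM in KO members and 42001 CPM in WT members. At the other end the cell cycle set held 1.90% of members, the class II set 1.61% and the oxidative phosphorylation set 2.05%. Sets of single genes, added after the values had been seen, held 37.0% of members for Hmox1, 33.3% for Nos2, 29.4% for Arg1 and 28.2% for Mmp12. Nos2 and Arg1, often used to mark opposite states, shared 83 members. That was 36.4% of the 228 in the Nos2 set, against 29.4% of all members in the Arg1 set. It was 41.3% of the 201 in the Arg1 set, against 33.3% of all members in the Nos2 set. Both shares were above those by size alone, and the part of counting error in this was not tested. The Nos2 set held every member with a Nos2 UMI, 67 in the library labelled KO and 161 in WT, so 1 UMI could place a member in it.

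The heat shock and inflammatory sets held largely different members. Of 171 members in the heat shock set and 92 in the inflammatory set, 6 were in both. That was 3.51% of the heat shock set, where the inflammatory set held 13.5% of all members. It was 6.52% of the inflammatory set, where the heat shock set held 25% of all members. The heat shock set had 46 KO and 125 WT members and the inflammatory set 62 and 30. The part of the library in the low overlap was not tested. The heat shock set overlapped instead with Hmox1, sharing 105 members (61.4% of 171 and 41.5% of 253), and the inflammatory set with Cxcl3, one of its own genes, sharing 55 (59.8% of 92 and 47.4% of 116). Of all members, the Hmox1 set held 37.0% and the Cxcl3 set 17.0%. Cxcl2 weighed most in the inflammatory sum, at 9401 of 21308 CPM in KO members and 5719 of 10913 CPM in WT members. The inflammatory set held 29.7% of KO members and 14.8% of other KO myeloid cells, against 6.32% and 2.82% in WT, whereas the heat shock set held 22.0% of KO members and 26.3% of WT members.

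Since 1 pooled threshold chose the members of both libraries, similar levels of the 4 rule genes between them follow from the rule. Outside it, Slc2a1 had 375 CPM in KO members and 379 CPM in WT members, Hmox1 366 and 419 CPM, and Mmp12 1809 and 1509 CPM. Of 8162 genes measured among members, 62 were at least 2-fold higher (0.76%) and 33 at least 2-fold lower (0.404%) in the library labelled KO than in WT, with no replicate behind either. Among other myeloid cells the same genes gave 28 higher (0.343%) and 6 lower (0.0735%), and 17 of the 62 and 4 of the 33 were past 2-fold there too. The member sums rest on fewer UMIs, 2149774 in the library labelled KO and 4172634 in WT, against 37061802 and 49570794 among other myeloid cells. The counts also depended on which cells entered: male-type cells alone gave 51 higher and 94 lower, and a myeloid gate of 5 CP10K gave 115 and 55.

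The genes highest in KO members were S100a9, S100a8, Serpinb2, Csf3, Cxcl3, Slpi, Ccl3, Inhba, Ccl4 and F3. S100a8 and S100a9, the calprotectin subunits of neutrophils and monocytes, had 269 and 267 CPM in KO members, against 7.67 and 0.24 CPM in WT members, the last from 1 UMI. They came from few cells: 11 KO members and 0 of 475 WT members had S100a8 and S100a9 at 10 CP10K or more. For the 0 of 475, a rough upper limit of 3 over the number of cells is 0.632%. These 11 also held G0s2 at 3018 CPM and Retnlg at 1172 CPM, against 0.475 and 2.38 CPM in the other KO members, together with C1qa at 1216 CPM. Their median depth was 2057 UMIs. Without them S100a9 had 2.38 CPM and S100a8 8.08 CPM in KO members.

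Among chemokines and other secreted factors, Cxcl3 and Slpi were higher in KO members with or without those cells. Cxcl3, a neutrophil-attracting chemokine, had 826 CPM in KO members and 106 CPM in WT members (7.80-fold, 7.02 to 8.67), with 108 and 24.95 CPM in other myeloid cells, and 743 CPM in KO members without the 11 cells. Slpi, a secreted inhibitor of leukocyte proteases, had 416 CPM in KO members and 55.1 CPM in WT members, and 348 CPM in KO members without the 11. Ccl3 and Ccl4, which attract lymphocytes and monocytes, had 667 and 1361 CPM in KO members, against 141 and 322 CPM in WT members. Serpinb2 and Csf3 came from few cells, since 10 cells held 97.2% and 94.1% of their UMIs in KO members, and that figure was 77.9% for Slpi and 68.0% for Cxcl3. KO over WT, the inflammatory list as a whole had a median of 0.89 on the log2 scale in members and 0.94 in other myeloid cells, with 9 of 19 genes at least 2-fold higher in KO members, so its higher level was not confined to members.

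On the low side, Lyz2, lysozyme M, led with 2671 CPM in KO members and 10729 CPM in WT members (0.249-fold, 0.242 to 0.256), and with 4470 and 9043 CPM in other myeloid cells. Interferon-induced genes followed, with Ifit2, Ifit3, Mx1 and Oas3 among the 10 lowest beside Col3a1, Phf11a, Cadm1, Hepacam2 and Tagap1. Ifit3, an antiviral effector, had 14.4 CPM in KO members and 56.1 CPM in WT members, and 10.3 and 18.4 CPM in other myeloid cells. The interferon list had a median log2 ratio of -0.64 in members, with 6 of 27 genes at least 2-fold lower, and of -0.28 in other myeloid cells. Set against other myeloid cells of the same library, the list median of members was -0.01 in the library labelled KO and 0.45 in WT.

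**Figure D5:**
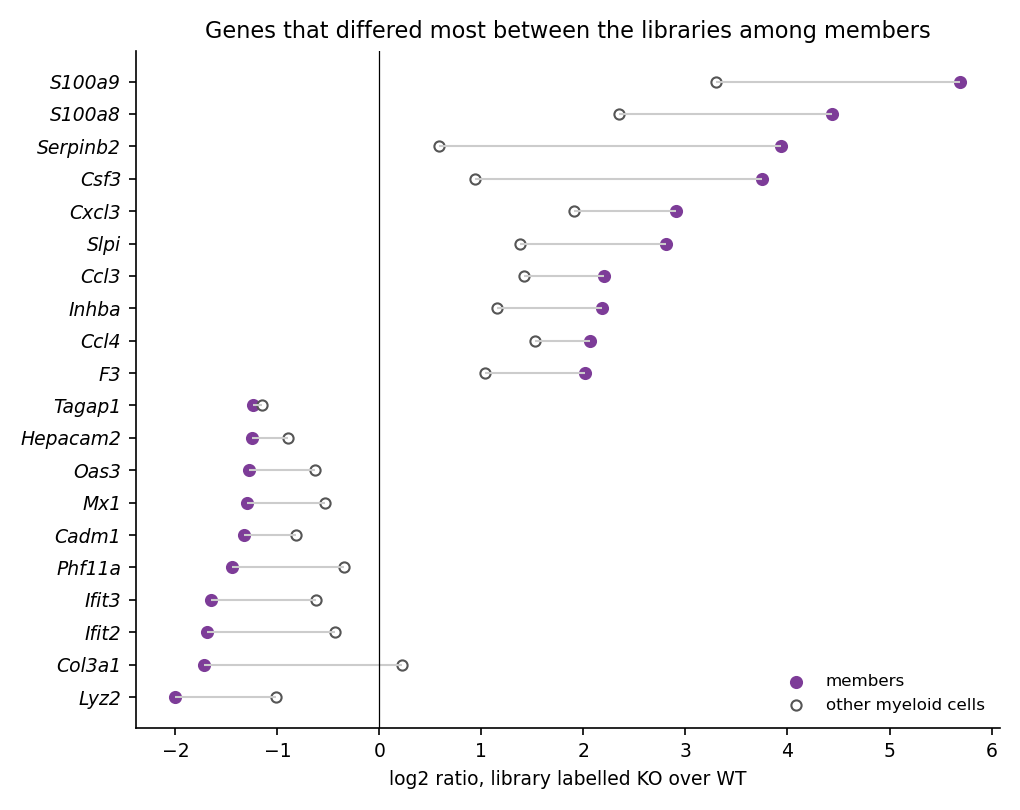
Log2 ratio, KO over WT (CPM plus 5, x axis), for the 10 highest and 10 lowest genes among members, in members (filled) and in other myeloid cells (open). The direction was the same in both cell groups for every gene drawn but Col3a1; the genes were chosen for their ratios in members.

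Some of these genes differed by sex type within the members of the library labelled KO. Lyz2 had 147 CPM in male-type members of the library labelled KO, 4883 CPM in its female-type members and 10777 CPM in male-type members of WT. Cell by cell, all 71 male-type KO members were under 10 CP10K of Lyz2, with a median of 1.40, against medians of 31.2 in female-type KO members and 86.1 in male-type WT members, where 10 of 367 were under 10. The same split ran through other myeloid cells, with 142 CPM of Lyz2 in male-type KO cells, 7003 CPM in female-type KO cells and 8959 CPM in male-type WT cells. Slc2a1 had 368 CPM in male-type KO members, 343 CPM in female-type KO members and 371 CPM in male-type WT members. Cxcl3 was above WT in both sex types, at 547 CPM in male-type and 917 CPM in female-type KO members against 102 CPM in male-type WT members, and Ifit3 was below it in both, at 18.7 and 5.31 CPM against 47.4 CPM.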

How the data were processed

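The deposited files hold whole-number UMI counts per gene and barcode, written by Cell Ranger 8.0.1 per the file headers; the submitters' processing notes name mm10 and Seurat 3. The labels' protocol describes a SeekOne MM microwell chip, so the chemistry behind the barcodes was not settled. Groups came from the genotype labels, with 1 library each. The members and gene lists were chosen with earlier results of these data known.

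Counts were summed per library over members and over other myeloid cells, scaled to CPM and compared as log2 ratios with 5 CPM added. Genes needed 50 UMIs over the cells compared and had to be detected in 5% or more of 1 cell group of 1 library; rule and gate genes were left out, and repeated symbols kept the identifier with more UMIs. Shares carry exact binomial intervals and ratios conditional exact intervals (95%, counting error only). UMIs were treated as molecules.

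The genes named were the 20 highest and 10 lowest by the less extreme library, the 10 highest and 10 lowest of KO over WT, the label markers, Runx3 and up to 6 per list; other genes were chosen after their values were seen. Mitochondrial, ribosomal, receptor, sex-linked and unnamed genes were not ranked. The doublet caller of scanpy 1.11.5 marked 0.0187% of KO and 0.0232% of WT barcodes and so did not work; leaving out the 5% with the highest doublet scores was an alternative. In all, 19 alternatives were planned and 4 were chosen later, with the data in view. Scripts used numpy 2.4.6, scipy 1.17.1 and pandas 2.3.3 and were tested on simulated data. One result on marker genes is not reported here.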

Additional observations from a re-analysis of the deposited data

How the results depend on the processing

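The share ratio of KO over WT (0.704) lay between 0.609 and 0.784 under the other choices of cut, depth, doublet score, rule genes and a stricter gate, but was 1.01 in male-type cells alone, 0.537 with the female-type cells of KO, 0.999 with a myeloid gate of 5 CP10K and the 8% chosen again, and 1.13 with no myeloid gate; the cause was not tested. The last 3 were chosen after seeing the data. Genes at least 2-fold higher in members (91) numbered 44 with cells thinned to 1000 UMIs and 45 with a pseudocount of 20 CPM. Genes at least 2-fold lower in members (54) numbered 156 with the highest 4% of cells, 22 with the highest 16%, 12 after thinning, 165 with a pseudocount of 1 CPM, 8 with 20 CPM and 86 with the gate of 5 CP10K. Genes higher in KO members than in WT members (62) numbered 31 after thinning, 39 with a gate of 30 CP10K, 103 with each cell weighted alike, 27 with a pseudocount of 20 CPM, 29 with at least 200 UMIs for a gene and 115 with the gate of 5 CP10K. Genes lower in KO members (33) numbered 65 with 4%, 19 with 16%, 94 in male-type cells, 61 with each cell weighted alike, 94 with a pseudocount of 1 CPM, 5 with 20 CPM, 128 with female-type cells of KO and 55 with the gate of 5 CP10K. Thinning left 3728 and 2284 genes to compare in place of 9903 and 8162. The glycolysis median over both libraries (0.91) was 0.80 after thinning, 0.84 without Bnip3 in the rule and 0.82 in male-type cells. Of the 20 genes named between libraries, Col3a1 turned to a log2 ratio of 1.23 with the highest 16% of cells; of the 30 named between members and other cells, none turned under 22 alternatives. No paired analysis was possible because each group has 1 library, and for the same reason no replicate could be left out. With no myeloid gate 209 genes were lower in members, and 118 were higher and 51 lower in KO members than in WT members. Depth limits the comparison of libraries, since KO members hold 2149774 UMIs.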

Other observations

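The same program was also present in barcodes outside the macrophage gate. Of the barcodes that were not counted as myeloid, 187 of 2070 in the library labelled KO (9.03%) and 90 of 3359 in WT (2.68%) reached the members' score. Most were below the myeloid gate, 181 in the library labelled KO and 65 in WT, and 24 and 41 had more than 1 UMI of the Cd3 genes. Among barcodes with S100a8 and S100a9 at 10 CP10K or more, 29 of 87 in the library labelled KO and 0 of 7 in WT reached the score. For the 0 of 7, a rough upper limit of 3 over the number of barcodes is 42.9%. Mesenchymal barcodes reached it in 4 of 141 cases in the library labelled KO and 4 of 198 in WT.

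Genes outside the rule were high in these barcodes too. Mmp12 had 2424 CPM in the high-score barcodes and 196 CPM in other barcodes outside the gate of the library labelled KO, and 1032 and 150 CPM in WT. Nos2 had 300.1 and 19.3 CPM in the library labelled KO and 146 and 8.12 CPM in WT, and Slc2a1 473 and 74.5 CPM in the library labelled KO and 321 and 69.3 CPM in WT. Cxcl3 differed between the libraries, with 3925 and 297 CPM in the library labelled KO and 66.5 and 12.8 CPM in WT. Macrophage markers summed to 4066 CPM in the high-score barcodes of the library labelled KO and to 3271 CPM in the others. In WT these sums were 7642 and 4971 CPM. How many of the high-score barcodes are macrophages below the gate was not tested. The sum of neutrophil markers was 1968 CPM in the high-score barcodes and 470 CPM in the others of the library labelled KO, and 25.1 and 67.5 CPM in WT, and their part in the level of Cxcl3 was not tested.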
